A study of Mus musculus with 6 samples.

Results

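Type I interferon-stimulated genes are genes whose RNA levels go up when cells sense the interferon-alpha and interferon-beta proteins. A list of 39 such mouse genes was followed here in myeloid cells sorted from the infarcted left ventricle and from the spleen, both taken 3 days after acute myocardial infarction in C57BL/6N wild-type mice. A gene was included where a non-control probe on the array carried its name, and where several did, the probe with the highest mean signal stood for the gene. This gave 36 genes out of 28233 gene names on the array, on 51 of its 39429 probes. Herc6, Ifi205 and Ifi27 had no probe under those names. Of the 36 genes, 35 were tested, and Oas1g, well above background on 2 of 3 heart arrays and 2 of 3 spleen arrays, was not.

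RNA was measured on 6 single-colour arrays, 3 of heart cells (heart 1, heart 2 and heart 4) and 3 of spleen cells (spleen 1, spleen 2 and spleen 4). In both tissues FACS kept cells with strong CD45 and CD11b staining and little staining for B, T and NK cell antigens and for Ly6G, a neutrophil antigen. All mice had an infarct, so neither group is an uninjured control. Each array holds RNA of a single spleen or ventricle. The labels do not say whether a heart and a spleen of the same number came from the same mouse, and p-values measure only the spread between these samples. The pan-leukocyte gene Ptprc (CD45), the integrin gene Itgam (CD11b), Csf1r and Lyz2 were well above background on all 6 arrays. Ly6g had no probe under that name. In sorted cell mixtures, fewer cells of a type that expresses a gene and less RNA per cell cannot be told apart.

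The pathway works as a relay. Interferons bind a receptor made of the Ifnar1 and Ifnar2 proteins, the kinases JAK1 and TYK2 are activated, and a complex that holds STAT2 and IRF9 binds a DNA element, the interferon-stimulated response element (ISRE), in the promoters of responding genes. The products of these genes sense foreign RNA and DNA, degrade RNA, block translation, tag proteins with the ubiquitin-like protein ISG15, and feed back on the receptor. In infarcted hearts the pathway has been studied mainly in infiltrating macrophages and monocytes, which can switch it on when they take up DNA of dying cells.

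Promoter sequences are shown first because the response element sits there in many of these genes. Promoters of 26 of the 39 listed genes were matched by symbol to the RefSeq promoter table of the build GRCm38.p6, which covers 250 bases before and 50 bases after each start site. The ISRE core, read as GAAA, any 2 bases and GAAA, searched on both strands with overlapping matches counted, was found in at least 1 window of 16 of these 26 genes (61.5%). Among all 27025 genes of the table it was found for 1079 (3.99%). Stretches of 80 bases upstream of the start site follow, 5′ to 3′ on the strand of the gene, with matches to the ISRE core on either strand in capitals. Among the 35 tested genes of the set, Isg15 and Rsad2 had the largest fold changes, Ifit1 did not pass the test, Oas1c was lower on every heart array, and Oasl1 was called with no match in the window.
Isg15 (chr4:156200849-156200928, minus strand): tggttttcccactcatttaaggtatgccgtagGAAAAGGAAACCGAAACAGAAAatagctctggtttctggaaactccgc
Rsad2 (chr12:26456533-26456612, minus strand): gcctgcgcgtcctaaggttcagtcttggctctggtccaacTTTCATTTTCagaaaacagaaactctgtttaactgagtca
Ifit1 (chr19:34640759-34640838, plus strand): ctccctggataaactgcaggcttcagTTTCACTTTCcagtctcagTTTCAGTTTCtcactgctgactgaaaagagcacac
Oas1c (chr5:120812585-120812664, minus strand): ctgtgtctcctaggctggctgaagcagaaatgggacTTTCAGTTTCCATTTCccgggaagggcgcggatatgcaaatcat
Oasl1 (chr5:114923060-114923139, plus strand): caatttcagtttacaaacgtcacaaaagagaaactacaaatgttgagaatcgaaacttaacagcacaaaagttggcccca
The 3 matches in Isg15 overlap, as do the 2 in Oas1c, and Ifit1 has 2 separate ones. Of the 4 genes called higher in heart, all with a promoter in the table, 2 had a match, and of 19 tested genes that were not called, 12 had one.

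The interferon-stimulated genes had even levels across the heart samples, while the 3 spleen samples differed among themselves. Rsad2, Isg15, Oasl1 and Ifit2 rose in heart, and the other 31 tested genes did not pass the test. The direction was mostly upward, with 30 of 35 fold changes positive, where 9534 of all 16323 tested genes had a positive one. The median log2 fold change of the 35 genes was 0.73 (heart minus spleen), against 0.10 over all tested genes. Levels are log2 signals relative to the 75th percentile of the same array, so 0 is that percentile, and they are compared between arrays and not between genes. The calls come from limma's moderated test of 3 heart against 3 spleen arrays, with p-values adjusted by Benjamini and Hochberg's method across the 16323 genes and a threshold of 0.05.

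The count of calls is close to the background. Of all tested genes, 9.04% were called higher in heart and 6.43% lower, against 4 and 0 of the 35 interferon-stimulated genes. At an unadjusted p under 0.05 there were 13 of the 35 (11 higher, 2 lower), where 32% of all genes reached that level. All 3 heart values lay above all 3 spleen values for 12 of the 35, and below them for 2, with a background of 24.6% and 16.4%. The standard errors were wide, with a median of 0.39 log2 units over the 35 genes and 0.26 over all genes.

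**Figure D1:**
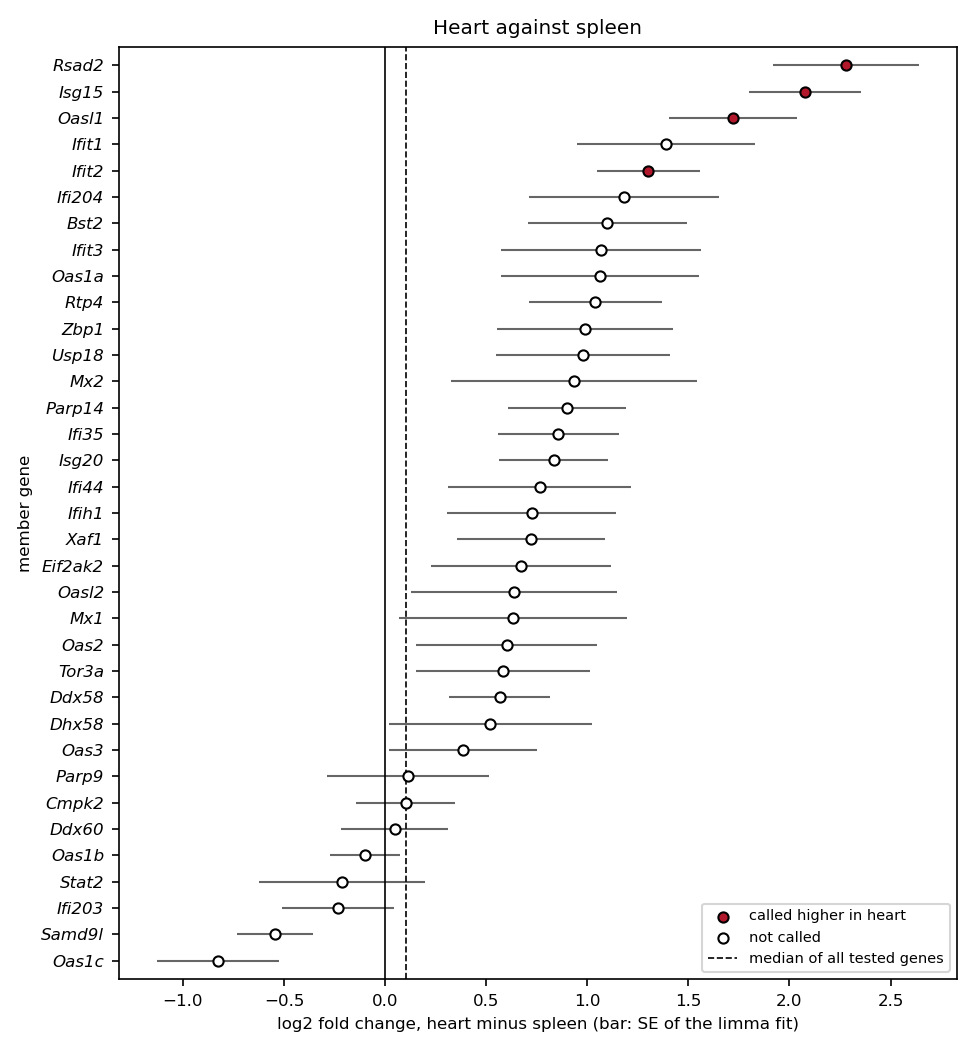
Log2 fold change, heart minus spleen, of the 35 tested interferon-stimulated genes (x axis, log2 units; bars are the standard error of the limma fit, 3 arrays per tissue), sorted by size. Filled points are the 4 genes called higher in heart, open points the 31 not called, and the dashed line is the median of all tested genes (0.10).

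The spread sat in the spleen samples. The SD over the 3 spleen arrays exceeded that over the 3 heart arrays in all 35 genes, as it did in 84.1% of all tested genes. The median SD of the 35 genes was 0.12 log2 units in heart and 0.80 in spleen, against 0.14 in heart and 0.40 in spleen over all genes. Per gene, the 3 heart values spanned 0.03 to 0.66 log2 units and the 3 spleen values 0.33 to 2.47.

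A single array, spleen 4, stood above the other spleen arrays in this set of genes. It was the highest of the 3 spleens for 31 of 35 genes, where this held for 44.7% of all tested genes. Its median difference from the mean of spleen 1 and spleen 2 was 1.30 log2 units over the 35 genes, between 0.13 and 2.10, and 0.13 over all genes. Spleen 1 was the lowest of the 3 spleens for 23 genes and spleen 2 for 12, where this held for 48.5% and 23.2% of all tested genes. Against the hearts, spleen 4 exceeded every heart value for 15 genes, lay below every heart value for 12 and between them for the rest. Spleen 1 and spleen 2 both lay below every heart value for 28 of the 35 genes. The share of all tested genes in these positions against the 3 hearts was not counted. By single pairs, 31 or 32 of the 35 genes were higher in a heart than in spleen 1, against 61.4% to 62.8% of all tested genes. For spleen 2 it was 30 or 31, against 53.5% to 56.9%. Over the 35 genes, the median of heart 4 minus spleen 4 was 0.02, with 18 genes higher in heart 4 and 17 lower. Heart 4 minus spleen 1 had a median of 1.52 and heart 4 minus spleen 2 one of 1.04. Over all tested genes these 3 medians were 0.01, 0.21 and 0.06, and 50.5% of genes were higher in heart 4 than in spleen 4.

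**Figure D2:**
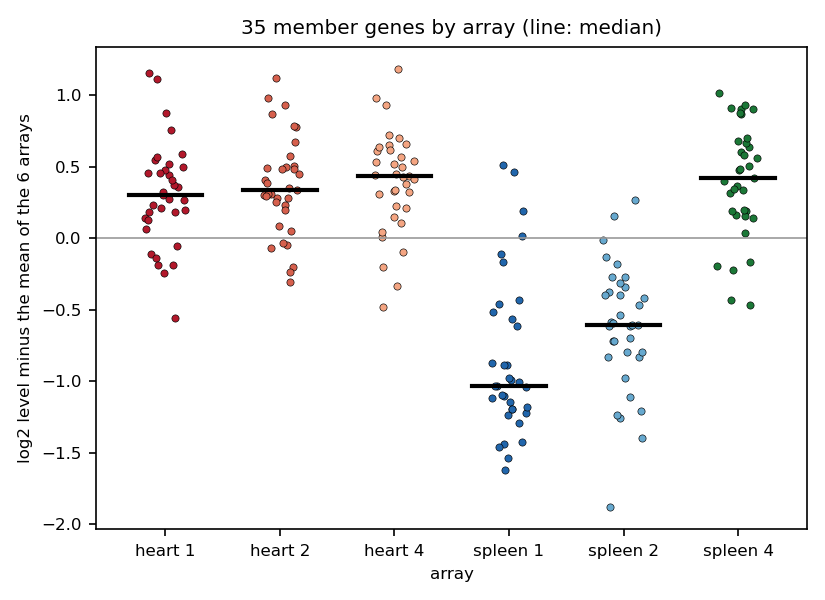
Each point is 1 of the 35 tested interferon-stimulated genes on 1 array, as the log2 level minus that gene's mean over the 6 arrays (y axis), and the line is the median over genes. The medians are 0.30, 0.34 and 0.43 for heart 1, heart 2 and heart 4, and −1.03, −0.60 and 0.42 for spleen 1, spleen 2 and spleen 4.

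The fit without spleen 4 therefore gave a different count. It called 23 of 35 genes higher and 0 lower, with 13.4% of all genes called higher in the same fit, and the median log2 fold change of the 35 genes was 1.18, against 0.11 over all genes. All 4 genes called with the 6 arrays were among the 23. Spleen 4 was the highest spleen for 31 of the 35 genes, so leaving it out had to raise their fold changes. The values without spleen 4 given below for single genes come from this same fit and are no separate support. With heart 1 left out 0 genes were called, and with heart 2 or heart 4 left out 1, Isg15; the background in these 3 fits was 2.09%, 2.2% and 2.21% called higher. With spleen 1 left out the count was 4 (background 9.69%) and the median 0.37, against 0.04 over all genes, and with spleen 2 left out it was 3 higher (background 6.63%) and 1 lower, Oas1c. The same 4 genes were called with all 6 arrays under the settings named next and with RefSeq names (background 9.04%). The background was 9.13% with normexp background, 8.39% with quantile scaling, 7.62% with median scaling and 8.36% in the authors' value table. It was 3.42% with no filter on dim probes, 9.08% with probes above background on all 6 arrays, 8.94% with slide as a random block, 9.34% with a trend and robust prior and 8.67% with array weights by tissue. With the replicate number as a block 3 were called (background 5.53%), Ifit2 being lost.

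Slide and date go together with some of these differences. Spleen 4 shared its slide with heart 1, spleen 1 and spleen 2 were on another slide and heart 2 and heart 4 on the remaining one. Where spleen 4 was left out, no slide held both tissues, so tissue and slide cannot be told apart in such a fit. Within the slide that held both tissues, heart 1 minus spleen 4 was positive for 14 of 35 genes and negative for 21, with a median of −0.23. Over all genes, 53% were positive for that pair, with a median of 0.05. With slide as a block the fold change rests on that pair alone, and 0 of the 35 genes were called (79 of 16292 genes called higher, 0.485%). Spleen 4 and heart 4 carry the later of the 2 dates in the sample titles. With the date as a block 5 genes were called higher, Parp14 beside the other 4 (background 8.34%), and on the arrays of the earlier date alone 10 were (background 5.4%). The part of slide, date and the single mouse in the level of spleen 4 cannot be told apart.

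Markers of other cells also differed between the spleen arrays. The summed signal of 13 neutrophil and granulocyte precursor genes with a probe, in multiples of each array's 75th percentile, was 72 to 84.5 in the hearts, against 858 in spleen 1, 1350 in spleen 2 and 554 in spleen 4. The 7 B cell genes summed to 4.71 to 5.71 in the hearts, against 120 in spleen 1, 6.23 in spleen 2 and 4.73 in spleen 4. The 9 T and NK cell genes summed to 5.95 to 7.64 in the hearts, against 44.4, 6.73 and 8.02 in spleen 1, spleen 2 and spleen 4, and the 7 erythroid genes to 9.19 to 44.3, against 183, 24.3 and 10.1. Thus spleen 1, low in interferon-stimulated genes, was also high in lymphocyte and erythroid markers, while spleen 2, also low, was not high in lymphocyte markers. On each heart array 3 of the 9 T and NK cell genes exceeded background, against 9, 7 and 5 in spleen 1, spleen 2 and spleen 4. The T cell gene Cd3g was among those at background in all hearts. Of the 13 neutrophil and precursor genes, 9 fell in heart (background 6.43%). The 10 fibroblast and cardiomyocyte genes summed to 1.88 to 5.3 in the hearts, against 0.192 to 0.269 in the spleens, and 7 of the 8 tested rose (background 9.04%). The 10 plasmacytoid dendritic cell genes, markers of a cell type known for making interferon, summed to 67.9 to 73.6 in the hearts, against 111, 66.9 and 51.3 in spleen 1, spleen 2 and spleen 4. The genes of that list went both ways. Siglech, a marker from that list, exceeded background on all 6 arrays and did not pass the test (log2 fold change 0.28, limma adjusted p = 0.403). Lair1 rose (1.75 ± 0.28, limma adjusted p = 0.0143), while Ly6d (−5.69, adjusted p = 0.0672) and Spib (−5.44, adjusted p = 0.0814), also expressed by B cells, lay below all spleens on every heart array and did not pass in limma. Ly6C-high monocyte genes summed to 185 to 203 in the hearts, against 135, 223 and 301 in spleen 1, spleen 2 and spleen 4. The 8 Ly6C-low monocyte genes summed to 140 to 168 in the hearts, against 41.4, 58 and 83.3 in spleen 1, spleen 2 and spleen 4. Of these, Nr4a1, the brightest of the list in heart (mean log2 level 6.84), rose (2.11 ± 0.23, limma adjusted p = 0.00426), and Spn and Eno3 fell. The spleens stood in the order of the interferon-stimulated genes in both monocyte lists and in the markers of the sorted cells, so that order was not particular to 1 list. The 9 genes listed for red pulp macrophages summed to 105 to 125 in the hearts, against 33.8, 14 and 17 in spleen 1, spleen 2 and spleen 4. The complement genes C1qa, C1qb and C1qc (log2 fold changes 4.54, 4.41 and 4.32) and Hmox1 (2.61) rose, while Spic, Vcam1 and Slc40a1 were at −0.60, −3.03 and −2.44 and did not pass in limma. The part of cell composition in the levels of the interferon-stimulated genes was not tested.

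**Figure D3:**
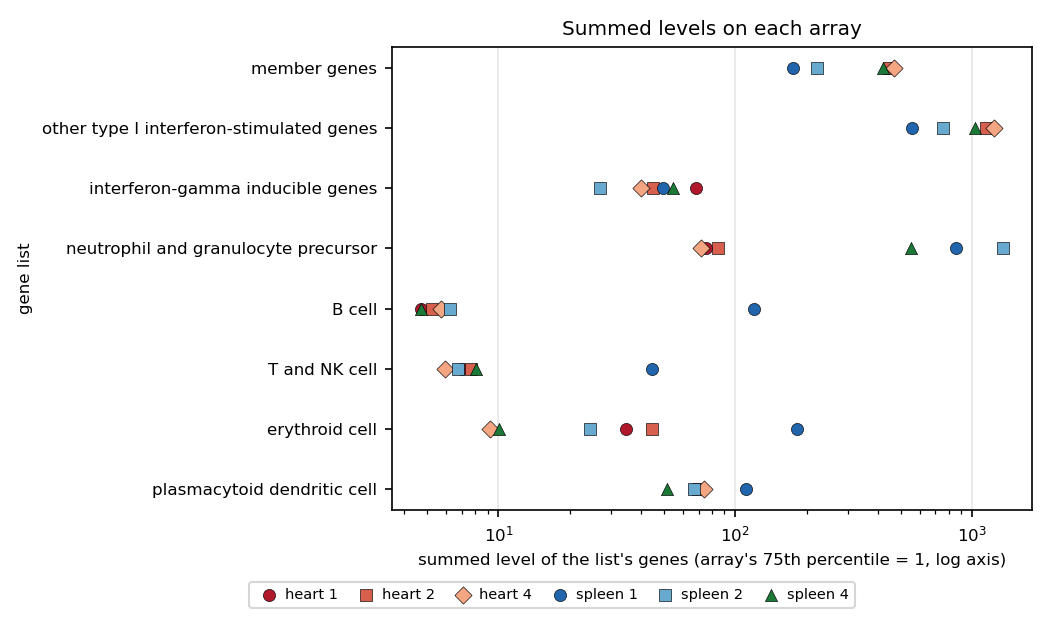
Summed linear signal of the genes of each list on each array (x axis, log scale, in multiples of the array's 75th percentile signal). For the interferon-stimulated genes (top row, 36 genes with a probe) the 3 hearts lie at 446 to 468 and spleen 4 at 421, against 175 in spleen 1 and 222 in spleen 2, and spleen 1 stands apart in the B cell, T and NK cell and erythroid rows.

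The gene groups follow by role, beginning with ISG15 and its handling. Isg15 encodes a small ubiquitin-like protein that is attached to other proteins and also secreted (probe at chr4:155573649-155573708 in mm9). Its log2 level was 5.93, 5.76 and 5.76 in heart 1, heart 2 and heart 4, against 3.34, 3.57 and 4.31 in spleen 1, spleen 2 and spleen 4. Every heart was above every spleen, and spleen 4 was the highest of the spleens. Isg15 rose by a log2 fold change of 2.08 ± 0.28 (SE, limma adjusted p = 0.00814), or 4.22-fold. The Isg15 call ended with heart 1 left out. A second, dimmer probe of Isg15 gave 2.27 ± 0.32, with adjusted p = 0.00956 in the limma fit over probes. Usp18 encodes the protease that removes ISG15 and that blunts signalling at the interferon receptor. Its levels were 1.89, 2.10 and 2.25 in the hearts, against 0.37, 0.87 and 2.07 in spleen 1, spleen 2 and spleen 4. Spleen 4 lay among the hearts, and the fold change of 0.98 ± 0.43 did not pass (limma adjusted p = 0.176; 1.46 and 0.0107 without spleen 4).

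The Ifit genes and Eif2ak2 act on translation. IFIT proteins bind RNA that lacks the cap modifications of the host, and Eif2ak2 encodes the kinase PKR, which halts translation when it meets double-stranded RNA. Ifit2 (probe at chr19:34650244-34650303 in mm9) had log2 levels of 0.56, 0.88 and 0.55 in heart 1, heart 2 and heart 4, against −1.02, −0.68 and −0.20 in spleen 1, spleen 2 and spleen 4. The tissues did not overlap, and Ifit2 rose by 1.30 ± 0.25 (SE, limma adjusted p = 0.0221). That call ended without spleen 2 (limma adjusted p = 0.0569), without heart 1, heart 2 or heart 4 (0.0898, 0.1 and 0.0838) and with the replicate block (0.0522). Ifit1 had 0.60, 1.07 and 0.84 in the hearts, against −1.001, −1.11 and 0.46 in spleen 1, spleen 2 and spleen 4. The hearts were again above all spleens, but spleen 4 came within 0.2 log2 units of the lowest heart and the fold change of 1.39 ± 0.44 did not pass (limma adjusted p = 0.0831; 1.89 and 0.00382 without spleen 4). Ifit3 was at 2.65, 2.87 and 2.95 in the hearts, against 1.28, 1.05 and 2.93 in spleen 1, spleen 2 and spleen 4. Its fold change was 1.07 ± 0.49 (limma adjusted p = 0.195; 1.65 and 0.0042 without spleen 4). For Eif2ak2, where spleen 4 was above every heart, it was 0.67 ± 0.45 (limma adjusted p = 0.352).

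The oligoadenylate synthetase family divided. Catalytically active members of this family sense double-stranded RNA and make the messenger that activates RNase L, and some members lack this activity. Oasl1 (probe at chr5:115387861-115387920 in mm9), known in mice to restrain translation of Irf7, had log2 levels of 2.98, 2.89 and 3.04 in heart 1, heart 2 and heart 4, against 1.12, 0.71 and 1.91 in spleen 1, spleen 2 and spleen 4. Oasl1 rose by 1.72 ± 0.32 (SE, limma adjusted p = 0.0195), with no overlap between tissues. The Oasl1 call ended with heart 1, heart 2 or heart 4 left out. Its neighbour Oasl2 had 2.84, 2.83 and 2.85 in the hearts, against 1.48, 1.69 and 3.44 in spleen 1, spleen 2 and spleen 4. Here spleen 4 was higher than every heart, and the fold change of 0.64 ± 0.51 did not pass (limma adjusted p = 0.441; 1.25 and 0.00617 without spleen 4).

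Oas1a had log2 levels of 5.40, 5.42 and 5.53 in the hearts, against 3.30, 4.55 and 5.32 in spleen 1, spleen 2 and spleen 4, with a fold change of 1.06 ± 0.49 (limma adjusted p = 0.192). Oas2 (0.60 ± 0.45, adjusted p = 0.407) and Oas3 (0.39 ± 0.36, adjusted p = 0.521) did not pass in the limma fit, and spleen 4 was above every heart for both. Oas1b and Oas1c differed in pattern from these. Oas1b, which carries a premature stop in C57BL/6 mice, was at 4.15, 4.22 and 4.28 in the hearts, against 4.10, 4.42 and 4.43 in spleen 1, spleen 2 and spleen 4 (−0.10 ± 0.17, limma adjusted p = 0.738; 0.02 with arrays scaled to their medians), and a dimmer probe gave −0.76. Oas1c was at −1.60, −1.24 and −1.52 in the hearts, against −0.53, −1.22 and −0.14 in spleen 1, spleen 2 and spleen 4. All hearts were below all spleens for Oas1c, but the fold change of −0.83 ± 0.30 did not pass (limma adjusted p = 0.118; −1.12 in the fit without spleen 2, adjusted p = 0.0397). The Oas1 genes are close paralogs in a cluster on chromosome 5, and probes can share signal between them.

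Among the nucleic acid sensors 0 of 7 tested genes were called by limma, with a background of 9.04% higher and 6.43% lower. In this group 1 had an unadjusted p under 0.05, against 32% of all genes, and the median log2 fold change was 0.57. Ifi204, a DNA-binding PYHIN protein gene of mice (probe at chr1:175677647-175677706 in mm9), had the largest difference. Its levels were 5.88, 5.98 and 5.84 in heart 1, heart 2 and heart 4, against 3.88, 4.48 and 5.80 in spleen 1, spleen 2 and spleen 4. Hearts lay above spleens, spleen 4 by less than 0.1 log2 units, and the fold change was 1.18 ± 0.47 (limma adjusted p = 0.143; 1.72 and 0.00672 without spleen 4). Zbp1, the sensor of Z-form nucleic acids that can start necroptosis, had 4.80, 4.32 and 4.49 in the hearts, against 2.75, 3.43 and 4.47 in spleen 1, spleen 2 and spleen 4 (0.99 ± 0.43, limma adjusted p = 0.175). A dimmer Zbp1 probe gave 0.50 ± 0.37.

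The RNA helicase sensors showed smaller differences. Ifih1 (MDA5) was at 0.73 ± 0.42, Ddx58 (RIG-I) at 0.57 ± 0.25 and Dhx58 (LGP2), their regulator, at 0.52 ± 0.50, with limma adjusted p of 0.286, 0.175 and 0.528. Spleen 4 was above every heart for Ifih1 and Dhx58. All 3 were called without spleen 4 (log2 fold changes 1.16, 0.80 and 1.08). The helicase gene Ddx60 was at 0.05 ± 0.26 and the PYHIN gene Ifi203 at −0.23 ± 0.28 (limma adjusted p = 0.924 and 0.614), with overlapping tissues. For Ifi203, 2 dimmer probes gave positive values, 0.53 and 0.45, so its probes disagreed in sign.

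Rsad2 led the antiviral effectors and the whole set. It encodes viperin, which makes a nucleotide that ends RNA chains (probe at chr12:27127859-27127918 in mm9). Its log2 level was 3.25, 3.26 and 3.32 in heart 1, heart 2 and heart 4, against 1.04, 0.26 and 1.70 in spleen 1, spleen 2 and spleen 4. The hearts agreed within 0.1 log2 units and lay above all spleens, and Rsad2 rose by 2.28 ± 0.36 (SE, limma adjusted p = 0.0134), or 4.85-fold. The Rsad2 call ended with heart 1, heart 2 or heart 4 left out. Cmpk2, the neighbouring gene on chromosome 12, encodes a mitochondrial nucleotide kinase. It was at 1.07, 1.49 and 1.36 in the hearts, against 0.79, 1.52 and 1.29 in spleen 1, spleen 2 and spleen 4. These values overlapped, and the fold change was 0.10 ± 0.24 (limma adjusted p = 0.811; −0.001 with quantile scaling).

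Mx1 and Mx2 encode dynamin-like GTPases, of which Mx1 is disrupted in most laboratory strains. Mx1 had log2 levels of 2.69, 2.86 and 3.05 in the hearts, against 1.09, 2.15 and 3.46 in spleen 1, spleen 2 and spleen 4 (0.63 ± 0.56, limma adjusted p = 0.495). Mx2 had 0.96, 1.25 and 1.49, against −0.78, −0.03 and 1.69 (0.93 ± 0.61, limma adjusted p = 0.342; 1.63 and 0.0167 without spleen 4). In both, spleen 4 was the highest of the 6 arrays. Bst2, or tetherin, holds budding virus at the membrane and is also a surface marker of plasmacytoid dendritic cells in mice. Its levels were 4.94, 4.84 and 4.93 in the hearts, against 3.16, 3.56 and 4.70 in spleen 1, spleen 2 and spleen 4, with no overlap (1.10 ± 0.39, limma adjusted p = 0.112; 1.54 and 0.00533 without spleen 4).

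Isg20, an RNA-degrading exonuclease gene, was also higher on every heart array (0.83 ± 0.27, limma adjusted p = 0.0878), and spleen 4 was not its highest spleen. Samd9l, an antiviral gene that inhibits translation, ran the other way. Its levels were 2.99, 3.00 and 2.90 in the hearts, against 3.70, 3.22 and 3.60 in spleen 1, spleen 2 and spleen 4, all hearts below all spleens (−0.54 ± 0.19, limma adjusted p = 0.106). Its other probe gave −0.51 ± 0.17.

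Among signalling and other members 0 of 8 were called by limma, with a background of 9.04% higher and 6.43% lower. In this group 3 had an unadjusted p under 0.05, against 32% of all genes, and the median was 0.74. Stat2, a subunit of the complex that turns these genes on, had log2 levels of 2.87, 2.62 and 2.97 in heart 1, heart 2 and heart 4, against 2.36, 2.80 and 3.95 in spleen 1, spleen 2 and spleen 4. Spleen 4 stood about 1 log2 unit above every other array, and the fold change was −0.21 ± 0.41 (limma adjusted p = 0.762; 0.24 without spleen 4). The ADP-ribosyltransferase family gene Parp9 had the same shape, with 1.64, 1.54 and 1.72 in the hearts, against 1.06, 1.03 and 2.45 in spleen 1, spleen 2 and spleen 4 (0.12 ± 0.40, limma adjusted p = 0.873; −0.01 with quantile scaling). Parp14, another member of that family, did not overlap, with 4.28, 4.25 and 4.55 in the hearts, against 3.03, 3.31 and 4.05 in the spleens (0.90 ± 0.29, limma adjusted p = 0.09; 0.0116 without spleen 4).

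Rtp4, a chaperone gene that also lowers interferon responses in mice, was at 5.29, 5.25 and 5.42 in the hearts, against 3.77, 4.08 and 4.99 in spleen 1, spleen 2 and spleen 4 (1.04 ± 0.33, limma adjusted p = 0.0819; 1.40 and 0.00631 without spleen 4). Ifi35 had no overlap either (0.86 ± 0.30, limma adjusted p = 0.107). Xaf1, a regulator of apoptosis, Tor3a and Ifi44 overlapped, with log2 fold changes of 0.72, 0.58 and 0.76 (limma adjusted p = 0.231, 0.403 and 0.3). The dimmer Xaf1 probe had the opposite sign, −0.47. Ifi44 exceeded background on 2 of 3 spleen arrays. Oas1g, not tested, was at −4.99, −4.05 and −4.38 in the hearts, against −7.55, −5.08 and −3.64 in spleen 1, spleen 2 and spleen 4.

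**Figure D4:**
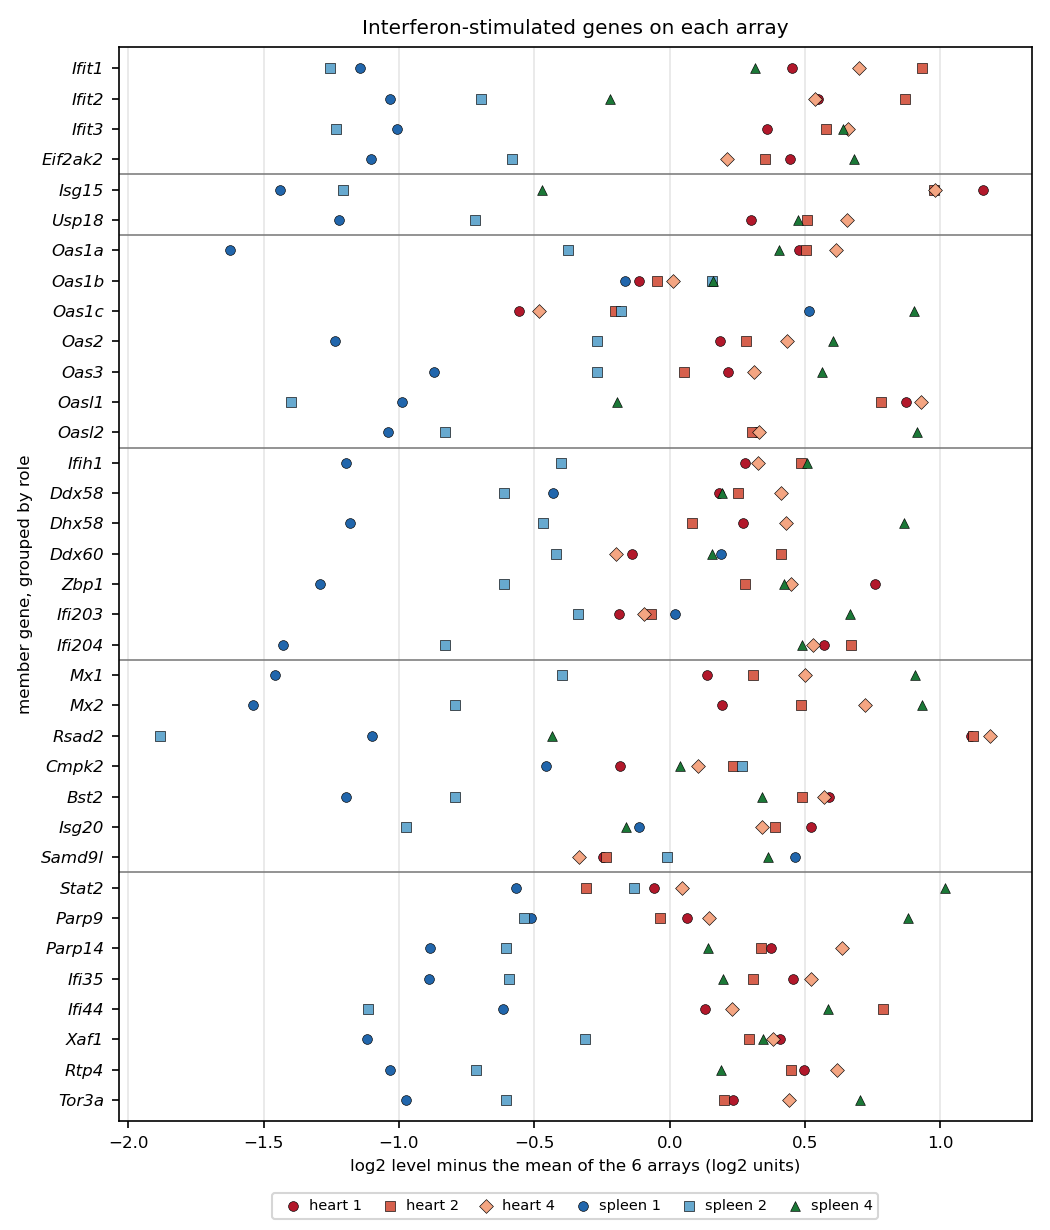
Level of each of the 35 tested interferon-stimulated genes on each array, as log2 level minus the gene's mean over the 6 arrays (x axis), with genes grouped by role. Spleen 1 and spleen 2 (blue) lie left of every heart for 28 genes. Spleen 4 (green triangle) is the highest spleen for 31 genes (44.7% of all tested genes) and exceeds every heart for 15. The shares of all tested genes for the 28 and the 15 were not counted.

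The ligand genes were low in signal or at background. Ifnb1, which encodes interferon-beta, exceeded background on 0 of 6 arrays, as did Ifna4, Ifna11, Ifne and Ifnk. Ifna1, Ifna2, Ifna5, Ifna12, Ifna13, Ifna14 and Ifnab exceeded it on all 6, at log2 levels between −4.15 and −2.03. Of 24 genes of interferons and their receptors, 18 had a probe and 11 were tested. Of these, 5 were called higher (45.5%, against 9.04% of all tested genes), with a median of 0.65. Ifnar1, the receptor chain, had log2 levels of 2.43, 2.34 and 2.50 in heart 1, heart 2 and heart 4, against 0.63, 1.09 and 1.59 in spleen 1, spleen 2 and spleen 4. It rose by 1.32 ± 0.27 (SE, limma adjusted p = 0.0245). The partner chain gene Ifnar2 was at 0.65 ± 0.38 (limma adjusted p = 0.3) and Ifngr1, a chain of the interferon-gamma receptor, at 0.08 ± 0.39 (limma adjusted p = 0.912). The other 4 calls were interferon-alpha genes of low signal (Ifna1 and Ifnab among them), led by Ifna13 (1.01 ± 0.19, limma adjusted p = 0.0211) and Ifna5 (0.74 ± 0.18, adjusted p = 0.0407). Ifna13 was at −2.65, −2.97 and −3.13 in the hearts, against −3.93, −4.02 and −3.82 in the spleens. Interferon-alpha genes are near-identical in sequence, so their probes can share signal and the single gene is uncertain. The 4 changes were 0.63 to 1.01. The lowest level counted as above background was itself 0.57 log2 units higher in heart than in spleen on average. Whether this enters changes of that size at low signal was not tested. With any 1 heart array left out, 0 genes of this list, of the sensing list and of the receptor signalling list were called by limma, so the calls on Ifnar1, Trim25, Socs3 and Stat3 ended there.

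Sensors and adaptors upstream of interferon had 1 of 16 tested genes called higher and 0 lower (background 9.04% and 6.43%), with a median of 0.30. That gene, the ubiquitin ligase gene Trim25, rose by 1.43 ± 0.32 (SE, limma adjusted p = 0.0307), with 5.43, 5.502 and 5.45 in the hearts, against 3.56, 3.80 and 4.71 in spleen 1, spleen 2 and spleen 4. Irf7, the factor that amplifies interferon-alpha production, was at 1.35, 1.40 and 1.43 in the hearts, against −0.19, 0.65 and 1.25 in spleen 1, spleen 2 and spleen 4, without overlap (0.82 ± 0.36, limma adjusted p = 0.177). The adaptor gene Myd88 was at 0.50 (limma adjusted p = 0.328).

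Genes of signalling from the receptor had 2 of 15 called higher and 0 lower (background 9.04% and 6.43%), with a median of 0.08. Socs3, a feedback inhibitor of cytokine signalling (1.73 ± 0.34, limma adjusted p = 0.0229), and Stat3 (1.03 ± 0.24, adjusted p = 0.0377), which serves interleukin 6 and related cytokines, rose. Irf9 was at 0.08 ± 0.25 (limma adjusted p = 0.864) and Irf1 at −0.16 (limma adjusted p = 0.721).

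A further list of 46 interferon-stimulated genes outside the 39 was counted beside them. Of 41 tested, 4 were called higher (9.76%, close to the 9.04% of all tested genes) and 1 lower, with a median of 0.38. Without spleen 4 the count was 13 higher (31.7%, against 13.4% of all genes in that fit) and 1 lower. With any 1 heart array left out it was 2 higher and 0 lower (background 2.09% to 2.21% called higher), so the call on Trim21 ended. Without spleen 2 it was 2 higher and 2 lower (background 6.63% and 4.67%). Cxcl10, the chemokine that draws CXCR3-bearing lymphocytes, was at 4.29, 4.19 and 4.54 in heart 1, heart 2 and heart 4, against 1.06, 0.81 and 1.31 in spleen 1, spleen 2 and spleen 4. It rose by 3.28 ± 0.20 (SE, limma adjusted p = 0.000786), and spleen 4 lay close to the other spleens. Ccl12 rose by 9.84 ± 0.29 (SE, limma adjusted p = 5.96e-05) and exceeded background on 2 of 3 spleen arrays. Its probe can share signal with Ccl2 and Ccl7. Ms4a4c rose by 1.11 ± 0.27 (limma adjusted p = 0.0412), and Sp110, outside the naming rule, by 1.01 ± 0.22 (limma adjusted p = 0.0318). Trim21, likewise named after its value was seen, fell by 0.89 on the log2 scale (limma adjusted p = 0.0337). The class I light chain gene B2m was at 0.38 (limma adjusted p = 0.35).

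Genes that answer mainly to interferon-gamma, such as the GBP and IRG families of guanosine triphosphatases, were set beside them because many interferon-stimulated genes respond to both types. Of 17 tested, 0 were called by limma in either direction (background 9.04% higher and 6.43% lower), with a median of 0.20. An unadjusted p under 0.05 was reached by 1, against 32% of all genes. Without spleen 1, 3 of 17 were called higher (background 9.69%), with a median of 0.53. The median was −0.02 without heart 1 and also without spleen 2. Igtp was at 3.44, 2.93 and 2.90 in the hearts, against 2.81, 2.03 and 3.097 in spleen 1, spleen 2 and spleen 4 (0.44, limma adjusted p = 0.399). Ifng itself was well above background on spleen 1 alone, with a log2 level of −0.42. The summed signal of this list was highest in heart 1 (68.6) and lowest in spleen 2 (26.9), an order that differs from that of the type I set.

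**Figure D5:**
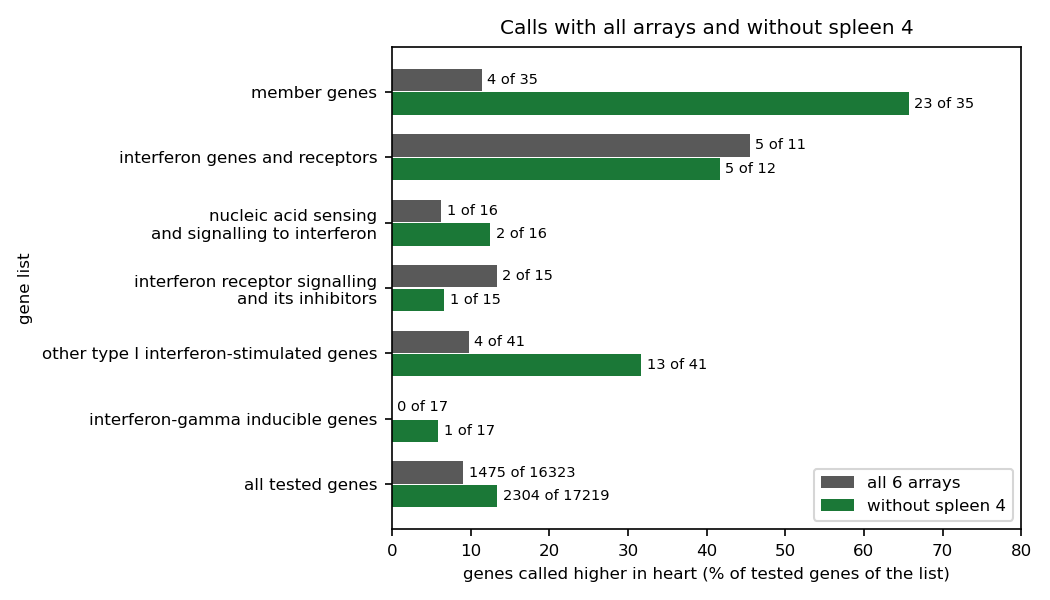
Share of the tested genes of each list that limma called higher in heart (x axis, percent), with all 6 arrays (grey) and without spleen 4 (green), with the counts beside the bars. The interferon-stimulated genes go to 23 of 35 without spleen 4, against 4 of 35 with all arrays, and all tested genes to 2304 of 17219, against 1475 of 16323. Without spleen 4 no slide holds both tissues.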

How the data were processed

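The members (the 39 listed interferon-stimulated genes) and the other gene lists were chosen with earlier results of these data known. The deposited scanner files hold spot intensity, per the file headers read by version 10.7.3.1 of Feature Extraction (Agilent), already background-subtracted and not scaled between arrays. The deposited value table holds log2 values made by the authors with an unstated baseline (median 0 in every column). Its differences between arrays matched quantile-normalized log2 signals (r 0.9998 to 1, slope 0.992 to 0.998, 19313 probes, 15 pairs), and it served as an alternative.

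Control spots and outlier spots were left out, spots of a probe averaged, and log2 processed signals reduced by each array's 75th percentile (1557 to 1989 intensity units). The share of probes well above background ran between 53.02% and 63.75%, and 0 were saturated. The number of arrays limits the precision. A gene was the brightest probe of its name in the file, tested where well above background on all 3 arrays of a tissue. limma 3.58.1 (R 4.3.3, data.table version 1.17.8, two-sided) compared heart with spleen, and the code was tested on simulated data. Figures were drawn with matplotlib 3.10.9. Genes outside the members were named by rule: Ifnb1, Ifnar1, Ifnar2, Irf7 and Irf9, and from each list the 3 called genes with the largest change and the brightest one not called. A further item under this rule is not reported here. Probe coordinates are mm9 and promoter coordinates GRCm38.p6; positions in exons were not analysed here. The alternatives are given in the closing section. The labels state no pairing, and the samples were treated as unpaired. Deviations of same-numbered arrays from their tissue means correlated at −0.05, 0.04 and 0.01, and those of differently numbered arrays at −0.072 to 0.047. With 3 arrays per tissue these values cannot show whether the samples were paired.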

Additional observations from a re-analysis of the deposited data

How the results depend on the processing

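The 3 arrays per tissue and the spread of the spleens limit what could be called. With all arrays, 4 members were called higher, 0 lower and 2524 genes in all. The same 4 members were called with normexp background, quantile or median scaling, either filter on dim probes, the authors' table, slide as a random block, a trend and robust prior, array weights, RefSeq names and without spleen 1. Median scaling moved the median of all genes to 0.22 and quantile scaling to 0.04. Leaving out 1 array in turn gave 0 to 23 members called higher, 0 to 1 lower and 462 to 4140 genes in all, the lowest without heart 1 and the highest without spleen 4. On the earlier date alone 10 members were called higher. All genes called numbered 1473 with no filter on dim probes. With the replicate block, 3 members (Ifit2 at adjusted p = 0.0522 by limma) and 1504 genes were called. With slide as a fixed block, where the fold change is that of heart 1 minus spleen 4, 0 members and 91 genes were called and the member median was −0.23. Signs then turned for Cmpk2 (−0.22), Ddx58 (−0.009), Ddx60 (−0.30), Dhx58 (−0.60), Eif2ak2 (−0.24), Ifi44 (−0.45), Ifih1 (−0.23), Ifit3 (−0.28), Mx1 (−0.77), Mx2 (−0.74), Oas2 (−0.42), Oas3 (−0.35), Oasl2 (−0.59), Parp9 (−0.82), Tor3a (−0.47) and Usp18 (−0.17), none of them called. Other turned signs, all of uncalled genes, were Cmpk2 (−0.001) and Parp9 (−0.014) with quantile scaling, Parp9 (−0.01) in the authors' table, Oas1b (0.016) with median scaling, and Ifi203 (0.033) and Stat2 (0.17) on the earlier date. With 1 array left out in turn, Cmpk2 ranged over −0.10 to 0.263 (negative without spleen 1), Ddx60 over −0.15 to 0.159 (negative without heart 2, −0.145, or spleen 2), Ifi203 over −0.459 to 0.044 and Stat2 over −0.549 to 0.244 (both positive without spleen 4), and Parp9 over −0.126 to 0.584 (negative without spleen 1, −0.113, or spleen 2). The cause of these changes was not tested.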
